A study of Mus musculus with 12 samples.

Results

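Unfolded protein and integrated stress genes are the genes that a cell uses when proteins misfold in the endoplasmic reticulum or when amino acids run short. The 9 genes described here were the transcription factors Atf4 and Ddit3, the regulators Trib3, Chac1 and Sesn2, the biosynthetic enzyme Asns, and the endoplasmic reticulum genes Hspa5, Xbp1 and Herpud1. They were chosen by name, with earlier results of these data known, and all 9 were found among the 21947 rows (loci) of the count table. Rows in which the names of several genes are joined by a comma were left out, including a second row with Xbp1 that joins it to Ccdc117.

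The unfolded protein response starts at sensors in the membrane of the endoplasmic reticulum, the compartment in which secreted and membrane proteins fold. These sensors splice the Xbp1 message, release the transcription factor ATF6 and, through the kinase PERK, phosphorylate the translation factor eIF2, after which chaperones such as Hspa5 are made. The integrated stress response joins the same eIF2 step to kinases that respond to amino acid shortage, heme shortage or foreign RNA, and acts largely through translation of Atf4, whose protein then induces genes such as Ddit3, Trib3, Chac1, Sesn2 and Asns. Counts measure RNA level only, so neither eIF2 phosphorylation nor Xbp1 splicing was measured.

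The cultures were primary keratinocytes, the main cells of the epidermis, from BALB/c neonatal mice. They grew at 0.05 mM calcium, which was raised to 0.12 mM so that the cells differentiate, and were lysed 48 hours after transfection. The siSbsn groups received 75 pmol of an siRNA pool against Sbsn (suprabasin, a protein of the upper epidermal layers), the siControl groups received 75 pmol of a non-targeting pool, and 1 group received no siRNA. The labels give 2 batches, without saying what a batch is. Of the 12 libraries, batch 1 had 2 each of no siRNA, siControl and siSbsn, while 3 siControl and 3 siSbsn libraries formed batch 2. The labels do not say which libraries came from separate cell isolations, so p-values measure the spread between these libraries, which may be technical. Nothing states whether the no siRNA cultures received the transfection reagent, HiPerfect.

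The promoters are shown first because several hold letters known from stress-induced genes, and the same genes are followed through the libraries below. All 9 genes had a promoter in the RefSeq table of the mouse GRCm38.p6 build, covering 250 bases before to 50 bases after the start. Both strands were searched for the C/EBP-ATF element TGATGNAA, to which ATF4 dimers bind, for the endoplasmic reticulum stress element (CCAAT, any 9 bases, CCACG), and for the XBP1/ATF6 element TGACGTGG. The C/EBP-ATF element was found in 4 of the 9 genes, Asns, Chac1, Herpud1 and Trib3, and in 3.97% of the 32851 promoters of the table. The endoplasmic reticulum stress element was found in 1 of the 9, Hspa5, and in 0.119% of the promoters. The XBP1/ATF6 element was found in 0 of the 9 and in 0.676% of the promoters. These motifs do not overlap with each other in the genes shown, and a match is a description of letters, not of a bound site. The sequences run 5′ to 3′ on the strand of the gene, with the match in capitals. Hspa5 (chr2:34771840-34772089, plus strand) holds its match from position -65 relative to the start, Asns (chr6:7693210-7693459, minus strand) from -23, Chac1 (chr2:119350992-119351241, plus strand) from -193 on the opposite strand and Herpud1 (chr8:94386179-94386428, plus strand) from -112 on the opposite strand. For Trib3 (chr2:152344031-152344060, minus strand) the first 30 bases after the start are shown, with the match from 15 on the opposite strand.
Hspa5: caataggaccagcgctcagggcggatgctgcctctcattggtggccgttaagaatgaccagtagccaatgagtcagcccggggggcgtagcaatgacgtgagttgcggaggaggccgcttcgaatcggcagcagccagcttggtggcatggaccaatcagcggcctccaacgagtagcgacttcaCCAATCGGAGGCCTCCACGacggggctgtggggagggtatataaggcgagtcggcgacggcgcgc
Asns: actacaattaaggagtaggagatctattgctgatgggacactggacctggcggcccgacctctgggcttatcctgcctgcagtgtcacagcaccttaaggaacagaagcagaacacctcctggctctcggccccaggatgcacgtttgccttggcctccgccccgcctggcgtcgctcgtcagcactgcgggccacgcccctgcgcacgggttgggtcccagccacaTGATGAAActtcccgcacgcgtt
Chac1: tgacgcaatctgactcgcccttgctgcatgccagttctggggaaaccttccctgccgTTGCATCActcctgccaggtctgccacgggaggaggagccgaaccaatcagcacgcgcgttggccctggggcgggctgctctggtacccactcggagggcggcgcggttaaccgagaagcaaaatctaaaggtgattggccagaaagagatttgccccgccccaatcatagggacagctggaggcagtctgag
Herpud1: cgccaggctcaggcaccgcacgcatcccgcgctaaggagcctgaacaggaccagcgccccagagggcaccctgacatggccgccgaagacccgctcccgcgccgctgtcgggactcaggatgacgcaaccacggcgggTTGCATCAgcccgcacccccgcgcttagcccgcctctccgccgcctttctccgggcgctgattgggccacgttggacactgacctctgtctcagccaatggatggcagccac
Trib3: agattagctcaggtTTACATCAgccgggcg

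Total counts per library ranged from 27934836 to 49553923, and all 9 genes passed the filter on low counts, with 616 to 60244 reads per library. Levels are given as CPM, the count of a locus relative to the size of its library after TMM scaling, and all CPM values are on a linear scale. The siRNA target Sbsn measured 1189 and 1356 CPM in the siControl pair and 1965 and 696 CPM in the siSbsn pair of batch 1. It was thus higher in the library labelled siSbsn batch 1 replicate 1 than in its controls, and the main results that use that library are also given without it. In batch 2 it spanned 331.8 to 459 CPM in siControl and 121 to 125 CPM in siSbsn, a log2 fold change of -1.64 ± 0.10 (SE, edgeR q = 0.00056). Keratinocyte markers (10 of 10 found, none at 0) summed to 30456 to 57932 CPM. Fibroblast markers (8 of 8) summed to 501 to 1497 CPM, melanocyte markers (7 of 7) to 742 to 1091 CPM, immune markers (8 of 8, Cd207 at 0 in every library) to 6.97 to 20.4 CPM and endothelial markers (6 of 6) to 2.02 to 3.47 CPM.

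Counted per length, the most abundant of the genes was the chaperone Hspa5. The mean level over all 12 libraries was 308 CPM per kb of transcript for Hspa5, 264 for Atf4, 158 for Asns, 93.5 for Xbp1, 50.6 for Trib3, 38.7 for Herpud1 and 20.1 for Chac1. Ddit3 and Sesn2 are not placed in this order, because their rows join several names. The Ddit3 row (chr10:127290793-127311786) also holds Mars, the methionyl-tRNA synthetase gene, and reads of Ddit3 and Mars cannot be told apart. The Sesn2 row (chr4:132490599-132510499, minus strand) also holds the transcript names AK155592 and AK214055. Whether counting used strand is not stated, so reads of overlapping genes on opposite strands may be mixed. The coordinates are those of the mm10 table, whose rows span whole genes from the first to the last exon.

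Atf4 (chr15:80255184-80257545, plus strand), the transcription factor at the centre of the integrated stress response, measured 385 and 435 CPM in the no siRNA libraries, 683 and 576 CPM in the siControl pair and 403 and 445 CPM in the siSbsn pair of batch 1. The batch 2 values were 584, 554 and 690 CPM for siControl and 549, 551 and 547 CPM for siSbsn. Both siControl libraries of batch 1 stood above the other 4 libraries of that batch, and in both batches every siSbsn library was below every siControl library. The gap was wide in batch 1 and small in batch 2, where the lowest siControl library was 554 CPM and the highest siSbsn library 551 CPM. Those libraries had 21989 and 15946 reads of Atf4, so the gap in batch 2 may lie within counting error. The log2 fold change of siSbsn against siControl was -0.61 ± 0.20 (SE, n = 2 and 2, edgeR q = 0.309) in batch 1 and -0.14 ± 0.08 (SE, n = 3 and 3, edgeR q = 0.511) in batch 2. Atf4 was the only one of the 9 genes with this separation in both batches, a pattern seen in 4.04% of the 13562 loci that passed the filter over all libraries.

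Ddit3 codes for CHOP, a transcription factor induced by ATF4 under lasting stress. Its row measured 222 and 274 CPM in the no siRNA libraries, 418 and 301 CPM in the siControl pair and 228 and 268 CPM in the siSbsn pair of batch 1. For batch 2 the counts gave 329.5, 312.5 and 375 CPM with siControl and 324, 344 and 333 CPM with siSbsn. The order in batch 1 was that of Atf4, with siControl highest, while the groups of batch 2 overlapped. The log2 fold change of siSbsn against siControl was -0.57 ± 0.25 (SE, edgeR q = 0.317) in batch 1 and -0.02 ± 0.07 (SE, edgeR q = 0.938) in batch 2.

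Trib3 (chr2:152337425-152344060, minus strand), a pseudokinase that feeds back on ATF4, had the largest log2 fold change of the 9 genes in batch 1 before any correction for gene length. After correction by GENCODE length, which may be too long for the counted Hspa5 row, Hspa5 had the largest. Trib3 measured 61.2 and 95.4 CPM in the no siRNA libraries, 157 and 112 CPM in the siControl pair and 63.5 and 95.6 CPM in the siSbsn pair. Batch 2 had 109.5, 98.8 and 119.9 CPM for its siControl libraries and 106, 106 and 105 CPM for its siSbsn libraries. The siControl libraries of batch 1 stood above the other 4, but 157 and 112 CPM lie far apart, and in batch 2 the siSbsn libraries lay inside the siControl range. The log2 fold change was -0.79 ± 0.33 (SE, edgeR q = 0.312) in batch 1 and -0.04 ± 0.07 (SE, edgeR q = 0.832) in batch 2.

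Chac1 (chr2:119351242-119354327, plus strand), an enzyme that breaks down glutathione, measured 34.1 and 43.1 CPM in the no siRNA libraries, 58.3 and 46.5 CPM in the siControl pair and 36.6 and 42.7 CPM in the siSbsn pair of batch 1. Its batch 2 levels were 23.2, 21.8 and 24.6 CPM under siControl and 22.0, 21.3 and 20.8 CPM under siSbsn. The siControl libraries of batch 1 were again the highest, the siControl and siSbsn libraries of batch 2 overlapped, and all of batch 2 lay below all of batch 1. The log2 fold change of siSbsn against siControl was -0.44 ± 0.23 (SE, edgeR q = 0.349) in batch 1 and -0.11 ± 0.07 (SE, edgeR q = 0.549) in batch 2. Sesn2, which restrains growth signalling when amino acids are short, ranged from 57.0 to 68.8 CPM in the 6 libraries of batch 1 and from 74.7 to 84.5 CPM in the 6 libraries of batch 2. Its 3 group means in batch 1 lay between 62.4 and 66.9 CPM, and its 2 batches did not overlap. Its log2 fold changes of siSbsn against siControl were -0.13 ± 0.19 (SE) in batch 1 and 0.04 ± 0.07 (SE) in batch 2.

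Asns (chr6:7675171-7693182, minus strand), asparagine synthetase, measured 308 and 345 CPM in the no siRNA libraries, 466 and 356 CPM in the siControl pair and 316 and 349 CPM in the siSbsn pair of batch 1. The batch 2 values were 264, 274 and 305 CPM for siControl and 269.7, 295 and 283 CPM for siSbsn. The lower siControl library of batch 1 was close to the highest of the others, so the separation in batch 1 rests mainly on siControl replicate 1. Leaving out that replicate moved the log2 fold change of siSbsn against siControl in batch 1 from -0.34 to -0.11, and in batch 2 the overlapping groups gave 0.02 ± 0.07 (SE).

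Hspa5 (chr2:34772090-34776529, plus strand), which codes for BiP, the main chaperone of the endoplasmic reticulum, measured 788 and 1090.3 CPM in the no siRNA libraries, 1259 and 1294 CPM in the siControl pair and 818 and 989.9 CPM in the siSbsn pair of batch 1. For batch 2 the counts gave 1175, 1177 and 1362 CPM with siControl and 1170.3, 1260.2 and 1184 CPM with siSbsn. The 2 siControl libraries of batch 1 were close to each other and above the other 4, and the groups of batch 2 overlapped. The log2 fold change was -0.53 ± 0.23 (SE, edgeR q = 0.318) in batch 1 and -0.03 ± 0.07 (SE, edgeR q = 0.866) in batch 2. Over the 12 libraries, after removal of each batch mean, Hspa5 had a Pearson r of 0.87 to Atf4, -0.49 to Xbp1 and 0.31 to Herpud1, which describes values that share libraries and depth.

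Herpud1 (chr8:94386500-94395358, plus strand), part of the machinery that removes misfolded proteins from the endoplasmic reticulum, separated the treatments in batch 2 and not in batch 1. The no siRNA libraries of batch 1 gave 81.7 and 95.5 CPM, the siControl pair 83.5 and 100.6 CPM and the siSbsn pair 90.3 and 79.2 CPM, with all groups overlapping. For batch 2 the values were 70.3, 67.6 and 77.7 CPM with siControl and 53.4, 53.7 and 53.2 CPM with siSbsn. The siSbsn libraries of batch 2 lay close together and well below all siControl libraries, at 74.3% of the siControl mean. The log2 fold change of Herpud1 was -0.42 ± 0.06 (SE, n = 3 and 3) in batch 2, with an edgeR q of 0.268 and a DESeq2 q of 8.62e-05. It was under the fold threshold of 0.5 with both tools and so was not called. The effect in batch 2 minus that in batch 1 was -0.29 ± 0.16 (SE, edgeR q = 0.386), so a difference between the batches was not shown.

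Xbp1 (chr11:5520641-5525993, plus strand), the transcription factor spliced by the sensor IRE1, measured 246 and 190.3 CPM in the no siRNA libraries, 246 and 199.8 CPM in the siControl pair and 287 and 214 CPM in the siSbsn pair of batch 1. In batch 2 it ranged from 158 to 179 CPM in siControl and from 164 to 172 CPM in siSbsn. All treatments overlapped within each batch. Its log2 fold change of siSbsn against siControl was 0.13 ± 0.25 (SE) in batch 1 and 0.02 ± 0.06 (SE) in batch 2.

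**Figure D1:**
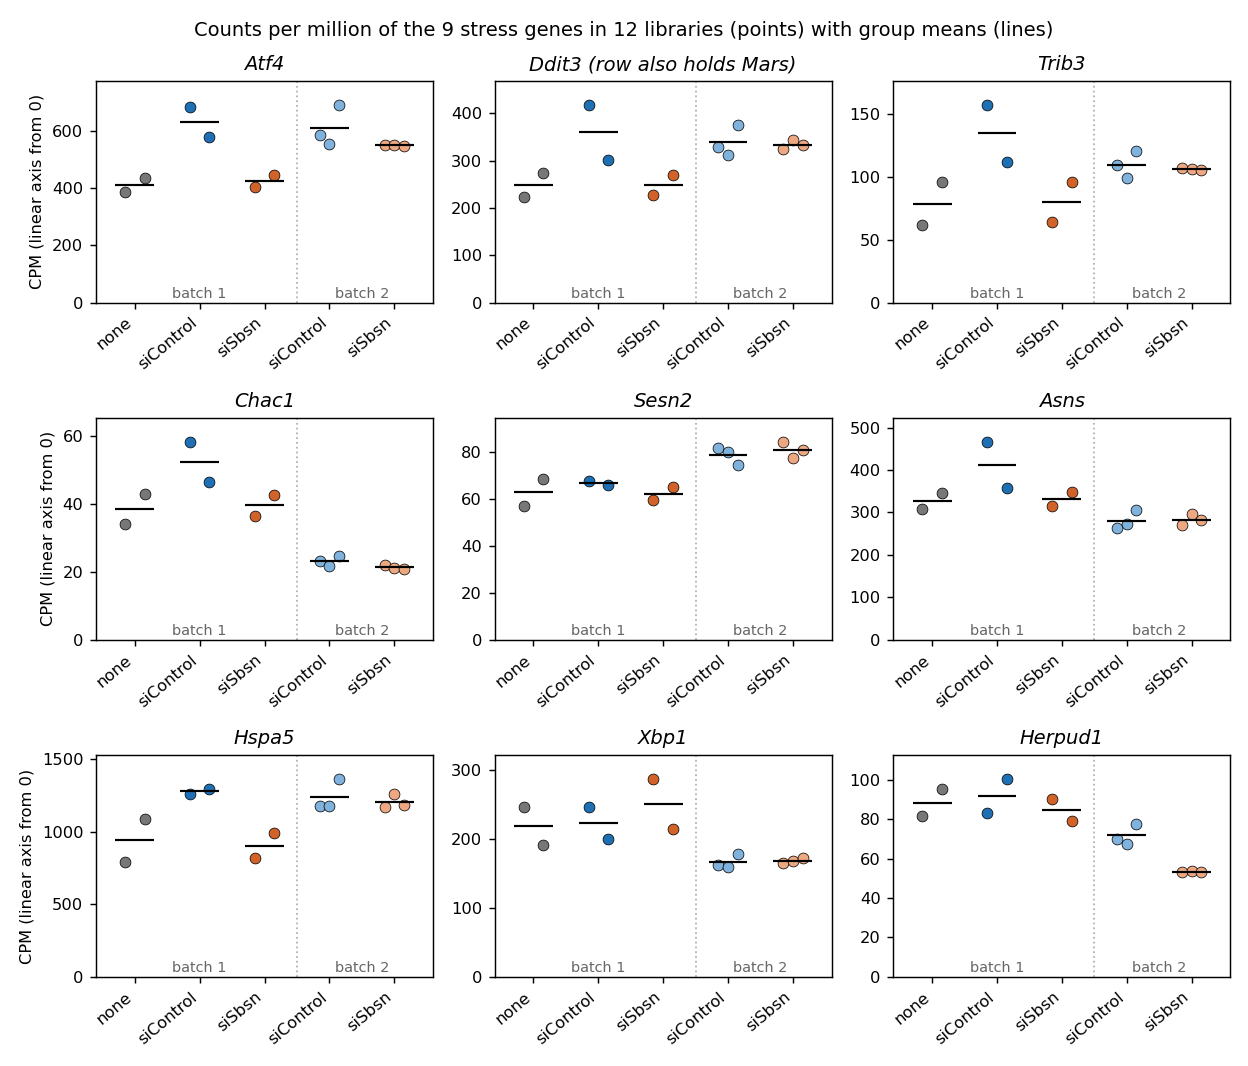
CPM (linear axes from 0) of the 9 stress genes in each of the 12 libraries, by group, with batch 1 to the left and batch 2 to the right of the dotted line. Points are libraries and lines group means. The 2 siControl libraries of batch 1 stand above the other 4 of that batch for 6 of the 9 genes, and for 20.7% of all loci. Herpud1 is at 53.2 to 53.7 CPM in siSbsn of batch 2 against 67.6 to 77.7 CPM in siControl.

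The comparison of siSbsn with siControl follows the labels. In batch 1 the log2 fold change of Sbsn itself was 0.03 ± 0.45 (SE, edgeR q = 0.975), so a knockdown was not shown there. Over both batches it was -0.96 ± 0.35 (SE, edgeR q = 0.254). In batch 1, 8 of the 9 genes had a lower estimate in siSbsn, with a median log2 fold change of -0.44 against -0.01 over all 13176 loci tested. A locus was called where the log2 fold change passed 0.5 in size with q under 0.05, and edgeR called 0 of the 9 genes and 0% of all loci, and DESeq2 called 0 of the 9 and 1.38% of the loci with a q-value. By edgeR, 2 of the 9, Atf4 and Trib3, were lower at an unadjusted p under 0.05, as were 8.24% of all loci. The siSbsn libraries lay below the siControl libraries without overlap for 7 of the 9 genes and for 25.4% of all loci. Leaving out the library labelled siSbsn batch 1 replicate 1, that count was 8 of 9 against 38.1% of loci, and the median of the 9 genes was -0.33, with Atf4 at -0.53, Trib3 at -0.52, Ddit3 at -0.45, Hspa5 at -0.40, Chac1 at -0.33, Asns at -0.27, Herpud1 at -0.25, Xbp1 at -0.09 and Sesn2 at -0.06. Of the 9 genes 1, Atf4, passed the call (-0.57, edgeR q = 0.0393) when all 12 libraries shared 1 estimate of the spread, as did 9.54% of loci, and 1, Atf4 again (-0.75, edgeR q = 0.0425), with siControl batch 1 replicate 2 left out, as did 19.3% of loci.

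In batch 2, where Sbsn was lower in every siSbsn library, 8 of the 9 estimates lay closer to 0 than in batch 1, the exception being Herpud1. The median log2 fold change was -0.03 against -0.01 over all loci, 6 of the 9 estimates were lower and 3 higher, and 8 lay between -0.14 and 0.04, with Herpud1 at -0.42. EdgeR called 0 of the 9 genes and 1 locus, Sbsn itself, which is 0.00774% of those tested, and DESeq2 called 0 of the 9 and 0.0767%. At an unadjusted p under 0.05, 1 of the 9 genes, Herpud1, was lower by edgeR, against 5.69% of all loci. The groups did not overlap, with siSbsn lower, for 2 of the 9 genes, Atf4 and Herpud1, and for 8.97% of loci.

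Over both batches, with batch as a term, the median of the 9 genes was -0.22 against 0.01 over all 12857 loci. EdgeR called 0 of the 9 and 0% of loci, DESeq2 called 0 of the 9 and 0.749%. At an unadjusted p under 0.05, 3 of the 9 were lower by edgeR, Atf4 (-0.31), Herpud1 (-0.30) and Chac1 (-0.22), against 9.49% of loci. Their smallest edgeR q was 0.254 and their smallest DESeq2 q 0.0956. The median of the 9 genes was -0.13 with the library labelled siSbsn batch 1 replicate 1 left out, -0.15 with siControl batch 1 replicate 1 left out and -0.15 after removal of the gene length trend, where Atf4 was at -0.15, Herpud1 at -0.15 and Chac1 at -0.02.

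The effect of siSbsn was compared between the batches by an interaction term, here the effect in batch 2 minus that in batch 1. It was positive for 7 of the 9 genes, with a median log2 difference of 0.33 against -0.02 over all loci. EdgeR called 0 of the 9 genes and 0% of loci, and DESeq2 called 0 of the 9 and 1.4%. At an unadjusted p under 0.05, 4 of the 9, Trib3 (0.73), Ddit3 (0.53), Hspa5 (0.48) and Atf4 (0.44), were positive by edgeR, against 7.41% of loci. Their smallest edgeR q was 0.283. Over all loci of known length, the interaction was more negative for longer transcripts, with a Spearman rho of -0.51. Of the 9 genes, 8 were shorter than the median of 3478 bases. The length trend was not removed for the interaction, so its part in these values was not tested. Single libraries of batch 1 moved the interaction values of the 9 genes. The median of the 9 genes was 0.13 without siControl batch 1 replicate 1 and 0.23 without siSbsn batch 1 replicate 1, where Trib3 was at 0.43. Without siControl batch 1 replicate 2 the interaction passed for 3 of the 9, Trib3 (edgeR q = 0.0168), Ddit3 (q = 0.0097) and Atf4 (q = 0.0282), and for 33.9% of loci.

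**Figure D2:**
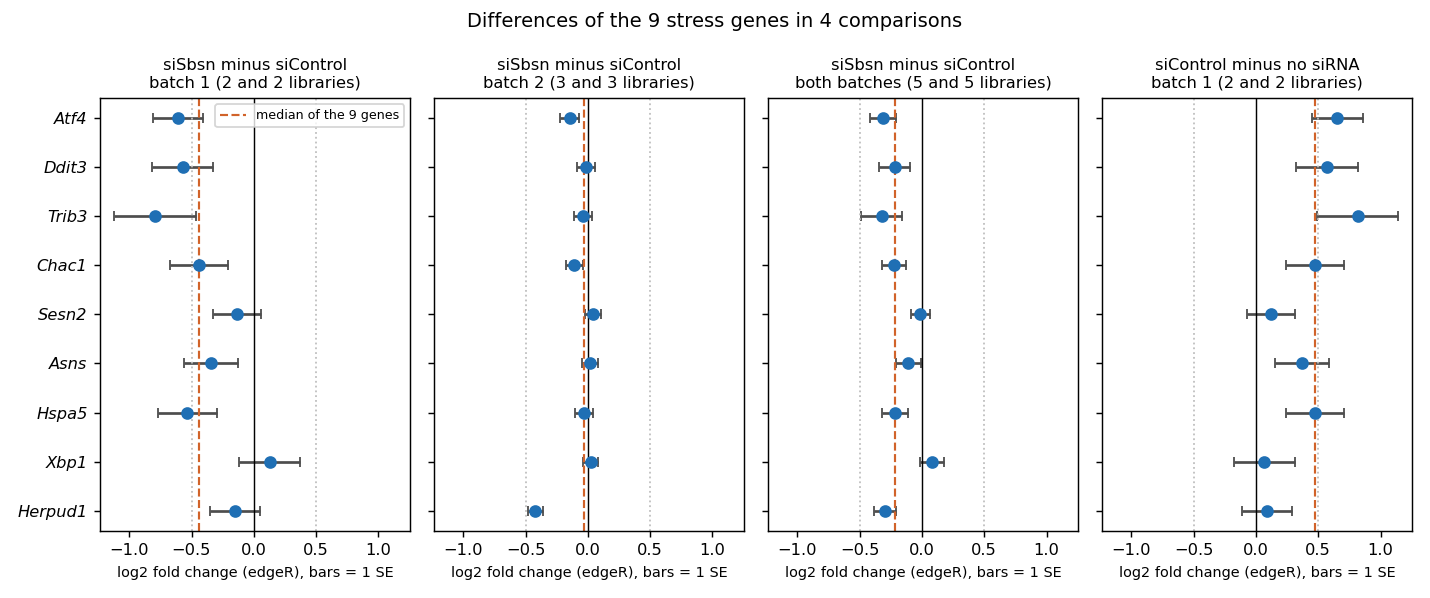
Log2 fold changes by edgeR with 1 SE (bars) of the 9 stress genes in 4 comparisons. Dotted lines mark the fold threshold of 0.5 in either direction and the dashed line the median of the 9 genes, which is -0.44 in batch 1, -0.03 in batch 2, -0.22 over both batches and 0.48 for siControl against no siRNA.

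The cultures without siRNA give the siRNA groups of batch 1 a further comparison, at 2 libraries per group. SiControl against no siRNA had positive estimates for all 9 genes, with a median log2 fold change of 0.48 against 0.00 over all loci. The largest were Trib3 (0.82 ± 0.33 SE), Atf4 (0.65 ± 0.20 SE) and Ddit3 (0.57 ± 0.25 SE), and the smallest were Sesn2 (0.12), Herpud1 (0.09) and Xbp1 (0.07). EdgeR called 0 of the 9 and 0% of loci, DESeq2 called 0 of the 9 and 0.176%, and at an unadjusted p under 0.05 edgeR had 2 of the 9 higher, Atf4 and Trib3, against 8.77% of loci. Both siControl libraries were above the other 4 libraries of the batch for 6 of the 9 genes, Atf4, Ddit3, Trib3, Asns, Chac1 and Hspa5, and for 20.7% of all loci. Leaving out the library labelled siSbsn batch 1 replicate 1, the same held for 6 of 9 genes and 25% of loci, and leaving out siControl replicate 2 it held for 6 of 9 genes and 37.2% of loci. SiControl replicate 1 was the highest library of batch 1 for 5 of these 6 genes, and Hspa5 was highest in replicate 2. The share of all loci highest in either library was not counted. Without siControl replicate 2, 2 of the 9, Atf4 (0.79, edgeR q = 0.0345) and Ddit3 (0.81, edgeR q = 0.048), passed the call, as did 23.7% of loci. The median of the 9 genes was 0.28 without siControl replicate 1, with 1 negative estimate, and 0.29 without no siRNA replicate 1, with 2 negative.

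SiSbsn against no siRNA in batch 1 gave estimates near 0 for all 9 genes, between -0.07 (Herpud1) and 0.20 (Xbp1), and between -0.16 (Herpud1) and 0.29 (Trib3) without the library labelled siSbsn batch 1 replicate 1. EdgeR called 0 of the 9 genes and 0% of loci, and DESeq2 called 0 loci. An unadjusted p under 0.05 was reached by 0 of the 9 genes and 23 of the 13176 loci in edgeR. The group means of Atf4 were 410.3 ± 35.5 CPM (SD, n = 2) without siRNA and 424 ± 29.5 CPM (SD, n = 2) with siSbsn, and those of Trib3 were 78.3 ± 24.2 and 79.6 ± 22.7 CPM. A difference between these 2 groups was not shown for any of the 9 genes, and their likeness was not tested. The differences between replicates 1 and 2 correlated between the 2 groups at 0.805 over 13562 loci. The spread used by the test thus holds a part that both groups share. The comparisons within batch 1 share libraries, so their values are given side by side only.

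Fibroblast markers summed to 677 to 1251 CPM without siRNA, 601 to 658 CPM in siControl and 642 to 1497 CPM in siSbsn of batch 1, and their part in the differences of the stress genes was not tested. In bulk RNA, fewer cells of a type and less RNA per cell cannot be told apart.

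**Figure D3:**
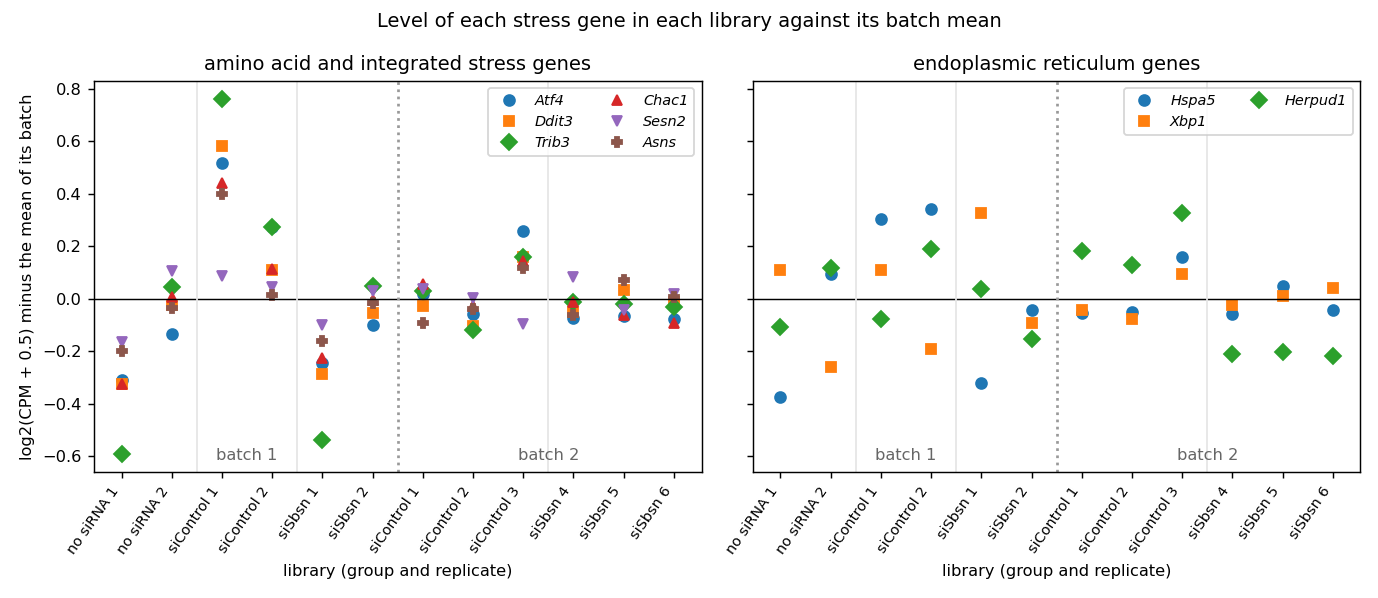
Log2(CPM + 0.5) of each stress gene in each of the 12 libraries minus the mean of its batch, for the 6 amino acid and integrated stress genes (left) and the 3 endoplasmic reticulum genes (right). In the first set 5 of 6 genes are highest in siControl replicate 1 of batch 1, the exception being Sesn2, and all 6 are lowest in no siRNA replicate 1. Hspa5, Xbp1 and Herpud1 each peak in a different library. The share of all loci with such peaks or low points was not counted, so they are not shown to be particular to these genes.

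Gene length moved with these differences. Over all loci with a known length, the log2 fold change of siSbsn against siControl was more positive for longer transcripts, with a Spearman rho of 0.56 in batch 1 and 0.46 in batch 2, and siControl against no siRNA was more negative for them, with a rho of -0.62. These are correlations across genes, which are not independent replicates. In batch 1, 7 of the 9 genes were shorter than the median of 3456 bases, from Chac1 at 1637 to the Ddit3 row at 3065, for which the length is that of the longest transcript in the row. When the trend on length was removed within each library, the median of the 9 genes for siSbsn against siControl in batch 1 moved from -0.44 to -0.11. Atf4 moved to -0.31, Trib3 to -0.47, Chac1 to -0.04, Asns to -0.04, and Herpud1 and Xbp1 to 0.12 and 0.40. Hspa5, the longest of the 9 by GENCODE at 3672 bases, stayed at -0.54, and the Ddit3 row was at -0.48. The GENCODE gene of Hspa5 (34771970 to 34777547) reaches past both ends of its counted row (34772090 to 34776529). The counted length of Hspa5 may thus be shorter than the length used, and what this does to its corrected values was not tested. For siControl against no siRNA the median moved from 0.48 to 0.10, with Hspa5 at 0.49, Trib3 and the Ddit3 row at 0.46 and Atf4 at 0.32.

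**Figure D4:**
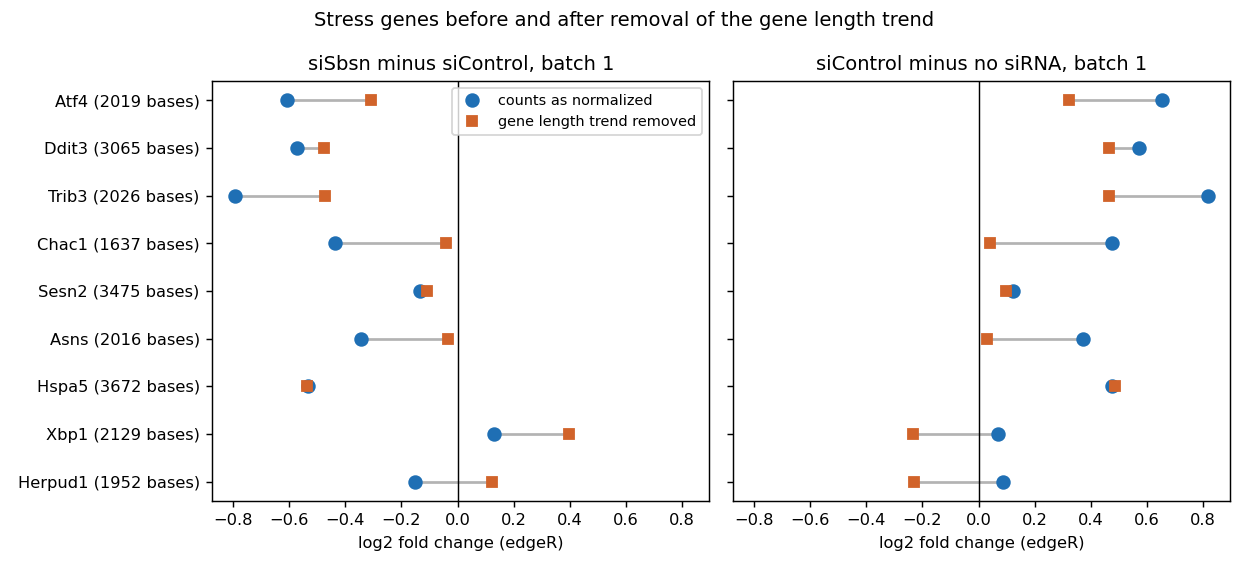
Log2 fold changes by edgeR of the 9 stress genes in batch 1 before (circles) and after (squares) removal of each library's trend on gene length, for siSbsn against siControl (left) and siControl against no siRNA (right). With the trend removed Chac1 lies at -0.04 and 0.04 and Asns at -0.04 and 0.03, while Hspa5 lies at -0.54 and 0.49.

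The batches themselves differed in the level of several of the genes. In batch 2 against batch 1, with treatment as a term, edgeR called 3 of the 9 genes lower, against 21.3% of loci called lower, and 0 of the 9 higher, against 16.4%. Chac1 fell by 1.04 on the log2 scale (SE 0.10, edgeR q = 2.47e-05), Herpud1 by 0.52 (SE 0.09, q = 0.00102) and Xbp1 by 0.51 (SE 0.10, q = 0.00195). Asns (-0.40) and Sesn2 (0.30) had q-values of 0.00788 and 0.00699 but were under the fold threshold, and Atf4, Ddit3, Trib3 and Hspa5 had estimates from 0.04 to 0.17. All 6 libraries of batch 2 lay below the 4 siControl and siSbsn libraries of batch 1 for 4 of the 9 genes, Asns, Chac1, Xbp1 and Herpud1, against 19% of loci, and above them for 1, Sesn2, against 16.5%. Chac1 was called under every alternative tried. DESeq2 called 1 of the 9, Chac1, with Herpud1 at -0.49 and Xbp1 at -0.48. Leaving out the library labelled siSbsn batch 1 replicate 1, Herpud1 was at -0.43 and Xbp1 at -0.39, under the fold threshold. With the trend on gene length removed Herpud1 was at -0.30 (edgeR q = 0.0578) and Xbp1 at -0.30, and in all Herpud1 lost its call under 4 alternatives and Xbp1 under 9.

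The other genes of these pathways were followed by 8 lists, in which edgeR and DESeq2 called 0 loci for siSbsn against siControl over both batches or in either batch. The list values are not corrected for gene length. Over all loci of known length, longer transcripts were more positive, with a Spearman rho of 0.56 in batch 1 and 0.46 in batch 2. The part of this trend in the list values was not tested. For the sensors and transducers, 10 loci, the median was 0.38 on the log2 scale in batch 1 and 0.06 in batch 2, opposite in sign to the median of the stress genes. In this list 1 of 10 loci was higher and 0 lower at an unadjusted p under 0.05 over both batches, where 9.68% of all loci were higher and 9.49% lower. It was Eif2ak2 (0.45 ± 0.12 SE, edgeR q = 0.254, DESeq2 q = 0.0441), the kinase PKR that binds foreign RNA. Eif2ak2 was under the fold threshold of 0.5 with both tools and so was not called. Eif2ak2 spanned 95.8 to 119.7 CPM in the no siRNA libraries, 56.0 to 72.5 CPM in the siControl pair and 102 to 107 CPM in the siSbsn pair of batch 1. In batch 2 it spanned 48.9 to 63.7 CPM with siControl and 66.2 to 69.5 CPM with siSbsn, so siSbsn stood above siControl in both. The share of all loci with this order in both batches was not counted. Eif2s1, the alpha subunit of eIF2, was at -0.17 ± 0.08 (SE).

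Of 13 loci of the transcription factors and feedback genes of the amino acid response, 5 were lower and 0 higher at an unadjusted p under 0.05 over both batches, against 9.49% of all loci lower and 9.68% higher, and the median was -0.27 in batch 1 and -0.06 in batch 2. Gdf15, a secreted stress signal, was at -0.70 ± 0.23 (SE) and Atf3, a transcription factor downstream of ATF4, at -0.51 ± 0.17 (SE). Gdf15 was a low gene, at 0.555 to 1.55 CPM in every library. The other 3 lower loci, named after their values were seen, were Atf5 (-0.33) and Cebpb (-0.29), both transcription factors, and Ppp1r15a (-0.42), which brings a phosphatase to eIF2. Each of these 3 shares its row with other genes. The Atf5 row also holds Nup62, Il4i1, Tbc1d17 and others, the Cebpb row Tmem189, and the Ppp1r15a row Tulp2. Reads of the joined genes cannot be told apart, so these 3 values are those of the rows. Of 12 loci of amino acid synthesis and one-carbon enzymes, 1 was higher, the mitochondrial folate enzyme Aldh1l2 (0.42), and 2 were lower, Phgdh (-0.53 ± 0.16 SE), the first enzyme of serine synthesis, and Shmt2 (-0.29 ± 0.09 SE), which shares its row with Ndufa4l2. Phgdh measured 31.0 and 45.6 CPM in the siControl pair and 19.9 and 21.0 CPM in the siSbsn pair of batch 1, and the groups of batch 2 overlapped. Of 10 loci of amino acid transporters 1 was lower, Slc3a2 (-0.35 ± 0.15 SE), the shared heavy chain of several transporters, and Slc1a5 was at -0.18 ± 0.09 (SE). Of 12 loci of tRNA charging enzymes 0 were higher or lower, with Iars at 0.24 ± 0.12 (SE) and Sars at -0.21 ± 0.13 (SE).

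Of 21 loci of endoplasmic reticulum chaperones and folding enzymes, 2 were lower and 0 higher at an unadjusted p under 0.05, with 9.49% of all loci lower, namely Manf (-0.36 ± 0.12 SE), a secreted protein induced by the unfolded protein response, and Sdf2l1 (-0.49 ± 0.16 SE), a partner of Hspa5. The list median was -0.23 in batch 1 and -0.06 in batch 2. Of 20 loci of degradation and translocation, 2 were higher, Edem1 (0.25 ± 0.07 SE), which takes misfolded glycoproteins to degradation, and Sel1l (0.39), against 9.68% of all loci. The 3 lower loci, against 9.49%, were Derl3 (-0.42), Vimp (-0.31) and Sec61g (-0.74 ± 0.23 SE), a subunit of the translocation channel that was at 0.311 to 1.44 CPM. Of 9 loci of cytosolic heat shock genes 0 were higher or lower, with Hspa8 at -0.12 ± 0.08 (SE) and Dnaja1, in a row with several other names, at -0.18 ± 0.09 (SE). Between the batches, 9 of the 12 synthesis and one-carbon enzymes and 6 of the 21 chaperones and folding enzymes were called lower in batch 2 by edgeR, against 21.3% of all loci, and 0 of either were called higher, against 16.4%. In siControl against no siRNA the list medians ran from -0.47 for the sensors and transducers to 0.27 for the synthesis and one-carbon enzymes. EdgeR called 0 loci of the lists and DESeq2 called 1, among the transcription factors and feedback genes. That locus was lower in siControl, as were all 25 loci called by DESeq2, which are 0.176% of the loci with a q-value. Its direction was opposite to that of the 9 genes. When the library labelled siSbsn batch 1 replicate 1 was left out, list medians for siSbsn against siControl in batch 1 ran from -0.27 for the synthesis and one-carbon enzymes to 0.49 for the sensors and transducers, and edgeR called 0 loci of the lists.

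**Figure D5:**
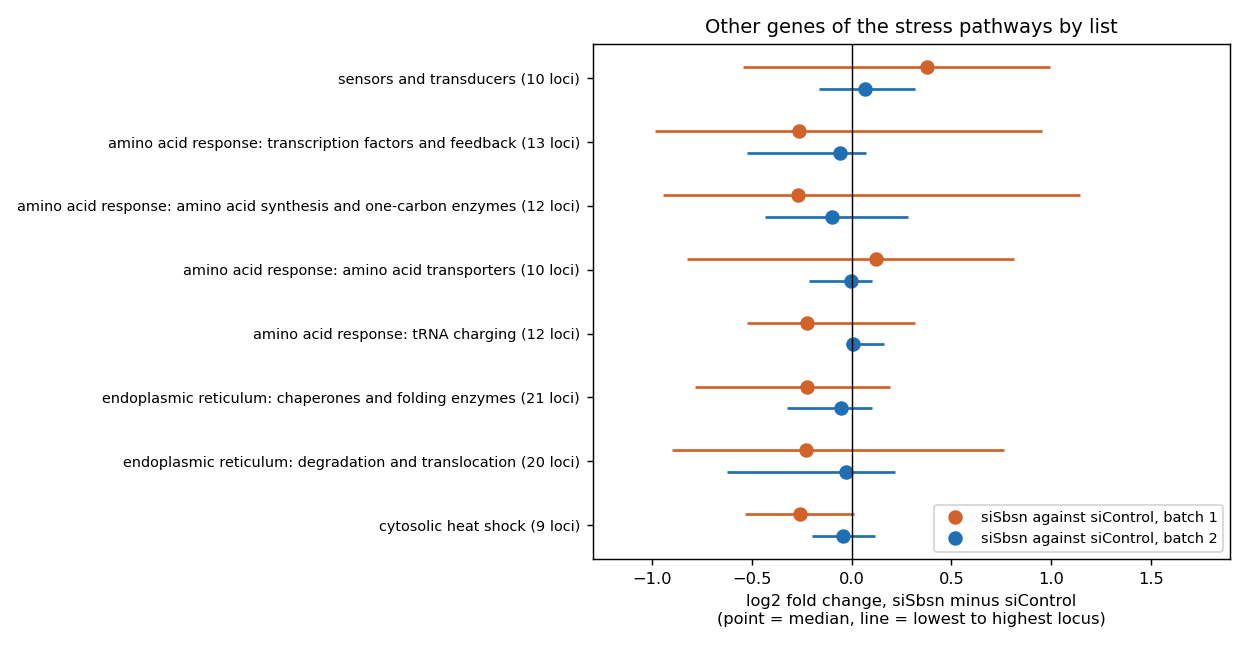
Log2 fold change of siSbsn against siControl for 8 lists of other stress pathway genes, in batch 1 and batch 2, with the median of each list (point) and the lowest and highest locus (line). Batch 1 spans the wider range in every list, with medians from -0.27 to 0.38, and batch 2 has medians from -0.10 to 0.06. The values are not corrected for gene length.

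Of the 6 amino acid and integrated stress genes, 5 varied together over the libraries. After removal of each batch mean, the Pearson r between Atf4, Ddit3, Trib3, Asns and Chac1 over the 12 libraries lay between 0.87 (Atf4 and Asns) and 0.97 (Trib3 and Chac1), while Sesn2 had an r of 0.39 to Atf4 and 0.68 to Trib3. Hspa5, from the other set, had an r of 0.78 (Asns) to 0.92 (Trib3) to the same 5 genes, so this was not particular to the amino acid set. The share of all loci with such values was not counted. These libraries share depth, batch and the length trend, so the values are descriptions. The loci whose pattern was most like the mean of the 6 genes were Npepl1 (r = 0.997), Lce1g (r = 0.993), a late cornified envelope gene, and H1f0 (r = 0.991), a linker histone gene. In batch 1 Npepl1 averaged 49.4 ± 11.1 CPM with siControl, 29.9 ± 5.30 CPM with siSbsn and 29.7 ± 8.00 CPM for no siRNA (SD, n = 2 each). Hspa5, Xbp1 and Herpud1 did not vary together, with an r from -0.49 (Hspa5 and Xbp1) to 0.31 (Hspa5 and Herpud1), so their mean describes no shared pattern. The loci most like that mean were 4921524J17Rik (r = 0.929), Lmnb2 (r = 0.921), a nuclear lamina gene, and Sec13 (r = 0.919), a coat protein of vesicles that leave the endoplasmic reticulum. In batch 2 Sec13 averaged 139 ± 13.3 CPM with siControl and 117 ± 2.16 CPM with siSbsn (SD, n = 3 each).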

How the data were processed

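RNA-Seq counts of 12 libraries were analysed. The authors used STAR with its defaults and the mm10 build, kept reads that aligned once, counted them on the UCSC KnownGene genes, and deposited whole-number counts without normalization. Their own tests used DESeq2. Groups were taken from the sample labels. EdgeR 4.0.16 in R 4.3.3 was used over all loci, with filterByExpr by treatment, TMM scaling, its quasi-likelihood F test and Benjamini-Hochberg q-values. DESeq2 1.42.0 was run as an alternative. The comparison over both batches used a batch term, and those of batch 1 used its 6 libraries in 3 groups. The SE of an edgeR log2 fold change is its size divided by the square root of F. A call needed a log2 fold change of more than 0.5 in size and q under 0.05. Locus starts are printed after adding 1, and gene length is the longest GENCODE transcript of the row, found for 95.4% of the loci tested. The scripts were tested on simulated data. The 9 genes, the lists and the alternatives were chosen with earlier results of these data known. Besides the 9 genes, those named are Sbsn, the 2 loci with the smallest p over both batches in each list, every list locus called over both batches (there was none), and the 3 loci most like each of the 2 sets of stress genes. List genes counted by an unadjusted p but outside this rule (Atf5, Cebpb, Ppp1r15a, Aldh1l2, Sel1l, Derl3 and Vimp) were named after their values were seen. Libraries of 1 group differed from each other beyond sampling noise (chi-square over its degrees of freedom from 3.77 to 163), so none was merged. Depths were 27934836 to 49553923 counts, but counting error depends on the reads of each locus and was not compared with the spread between libraries. It need not be small beside that spread for loci with few reads, such as Gdf15 and Sec61g. The same holds where libraries lay close together, as for Herpud1 in siSbsn of batch 2 (53.2 to 53.7 CPM from 1554 to 2749 reads). Alternatives were DESeq2, RLE size factors, no filter, no batch term, all 12 libraries in 5 groups, only the groups compared, removal of the trend on gene length within each library, a replicate block, and leaving out each library in turn. The trend on gene length was not removed for the interaction. Counts of genes whose groups do not overlap were also taken without each siControl and siSbsn library of batch 1, a choice made after seeing the data.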

Additional observations from a re-analysis of the deposited data

How the results depend on the processing

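Over the alternatives, the estimates of the 9 genes mostly kept their direction and side of the call, 149 of 153 for siSbsn against siControl over both batches, 94 of 99 in batch 1 and 90 of 99 in batch 2. Counts of called loci moved more. With DESeq2 they were 92 over both batches, 165 in batch 1, 7 in batch 2, 25 for siControl against no siRNA and 166 for the interaction. Without the filter on low counts they were 851 in batch 1, 9 in batch 2, 815 for siControl against no siRNA and 17 for the interaction. With all 12 libraries in 5 groups they were 150 over both batches, 1294 in batch 1 and 0 in batch 2, and with the gene length trend removed 6 in batch 2. Leaving out 1 library at a time gave 0 to 2618 in batch 1, 1 to 10 in batch 2, 0 to 3213 for siControl against no siRNA and 0 to 4398 for the interaction. The highest of these came without siControl batch 1 replicate 2, or in batch 2 without siControl replicate 3, and the interaction had 435 without siSbsn batch 1 replicate 2. The causes were not tested. A lone library left in a group was assumed to vary like the others.

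Signs of small estimates turned as follows. With the length trend removed, Asns came to 0.054 for siSbsn against siControl over both batches, Herpud1 to 0.12 in batch 1, and Ddit3 to 0.013 and Trib3 to 0.034 in batch 2, while Herpud1 came to -0.23 and Xbp1 to -0.24 for siControl against no siRNA. For siSbsn against no siRNA, Asns, Chac1 and Trib3 came to -0.0062, -0.0022 and -0.0069 with the trend removed, and Ddit3 to 0.0061 with DESeq2, 0.0066 with RLE size factors, 0.00055 with all 12 libraries and 0.0083 without the filter. Leaving out 1 library at a time gave these ranges of log2 fold change. For siSbsn against siControl over both batches, the range was Sesn2 -0.047 to 0.027. For siSbsn against siControl in batch 1, the range was Sbsn -0.90 to 0.59 and Xbp1 -0.090 to 0.32. For siSbsn against siControl in batch 2, the range was Asns -0.018 to 0.066, Ddit3 -0.056 to 0.049, Hspa5 -0.067 to 0.028, Sesn2 -0.0070 to 0.080 and Trib3 -0.094 to 0.016. For siControl against no siRNA, the range was Herpud1 -0.027 to 0.21, Sbsn -0.38 to 0.075, Sesn2 -0.011 to 0.27 and Xbp1 -0.12 to 0.26. For siSbsn against no siRNA, the range was Asns -0.052 to 0.11, Atf4 -0.039 to 0.14, Chac1 -0.12 to 0.22, Ddit3 -0.14 to 0.16, Herpud1 -0.17 to 0.054, Hspa5 -0.27 to 0.20, Sbsn -1.07 to 0.42, Sesn2 -0.14 to 0.13, Trib3 -0.31 to 0.38 and Xbp1 -0.023 to 0.39. For batch 2 against batch 1, the range was Trib3 -0.12 to 0.24. For the interaction, the range was Xbp1 -0.34 to 0.061.

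With the replicate block, 0 loci were called for siSbsn against siControl over both batches and in batch 1, for siControl against no siRNA and for siSbsn against no siRNA, as without it, and Sbsn in batch 1 came to -0.13 from 0.03. The labels do not say what the numbers mark. The differences between replicates 1 and 2 correlated over 13562 loci at 0.805 between no siRNA and siSbsn, 0.379 between no siRNA and siControl and 0.457 between siControl and siSbsn, and only 2 numbers are shared, so the pairs are not taken as paired samples.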
